A study of Mus musculus with 12 samples.

Results

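The comparison of DIDS in ACSF with control ACSF asks what DIDS does to gene expression in hippocampal slices that are not exposed to ischemic solution. Its members were chosen by title: ACSF + DIDS 2 and 3 were compared with Control ACSF 1, 2 and 3, which is 5 of the 12 deposited samples. All were organotypic hippocampal slice cultures (living slices maintained in a dish) of C57BL/6J mice of mixed gender. The ACSF + DIDS slices were kept for 2 h with DIDS (a diisothiocyanato stilbene disulfonic acid) in artificial cerebrospinal fluid (ACSF), and the Control ACSF slices spent 2 h in ACSF alone. The remaining groups of the series, ischemic solution (IS) with and without DIDS, entered the model through 3 arrays: IS 1, IS 3 and IS + DIDS 1. IS 1 and IS 3 add to its estimate of spread, whereas IS + DIDS 1, alone in its group, does not. All 3 also entered the normalization and the choice of detected probes. The DIDS concentration, the age of the mice and the number of mice or cultures behind an array are not given in the sources used here, so the p-values reflect spread among arrays, which may be technical.

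DIDS inhibits anion exchangers and bicarbonate cotransporters of the Slc4 family and several chloride channels, and its isothiocyanate groups react with proteins. Slice cultures contain neurons, astrocytes, oligodendrocytes and microglia, and cutting and culture leave glia in a reactive state in which NF-kB and interferon pathways drive chemokines such as Ccl2 and Cxcl1, the pentraxin Ptx3 and the transcription factor Irf1. Nr4a2 (Nurr1) and its relatives are orphan nuclear receptors encoded by immediate early genes, which neurons induce through calcium, cyclic AMP and CREB. In whole slices, fewer cells of a type and less RNA per cell cannot be told apart.

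The 12 deposited array files held 9 distinct arrays. Within each of 3 pairs of files, 0 of 46628 probe signals differed: ACSF + DIDS 3 equalled IS 2, ACSF + DIDS 1 equalled IS + DIDS 2, and IS + DIDS 1 equalled IS + DIDS 3. The authors also deposited a table of normalized signals, and its 12 columns all differed from each other. Each column of 9 titles matched the file of the same title with a Spearman rank correlation of 0.997 or more over probes, whereas the columns of ACSF + DIDS 1, IS 2 and IS + DIDS 1 reached only 0.955, 0.953 and 0.954 with theirs. The file shared by ACSF + DIDS 3 and IS 2 matched the ACSF + DIDS 3 column, with a correlation above 0.999. ACSF + DIDS 1 therefore has values of its own only in the authors' table, where it was most like ACSF + DIDS 2 (Pearson r = 0.992 over probes). The description of ACSF + DIDS 2 names IS + DIDS, against its title, and its column and file matched each other (0.99992). Both DIDS arrays of the files lay on the chip of Control ACSF 3, while Control ACSF 1 and 2 lay on another chip, and the chip of ACSF + DIDS 1 is not given in the sources used here.

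**Figure D1:**
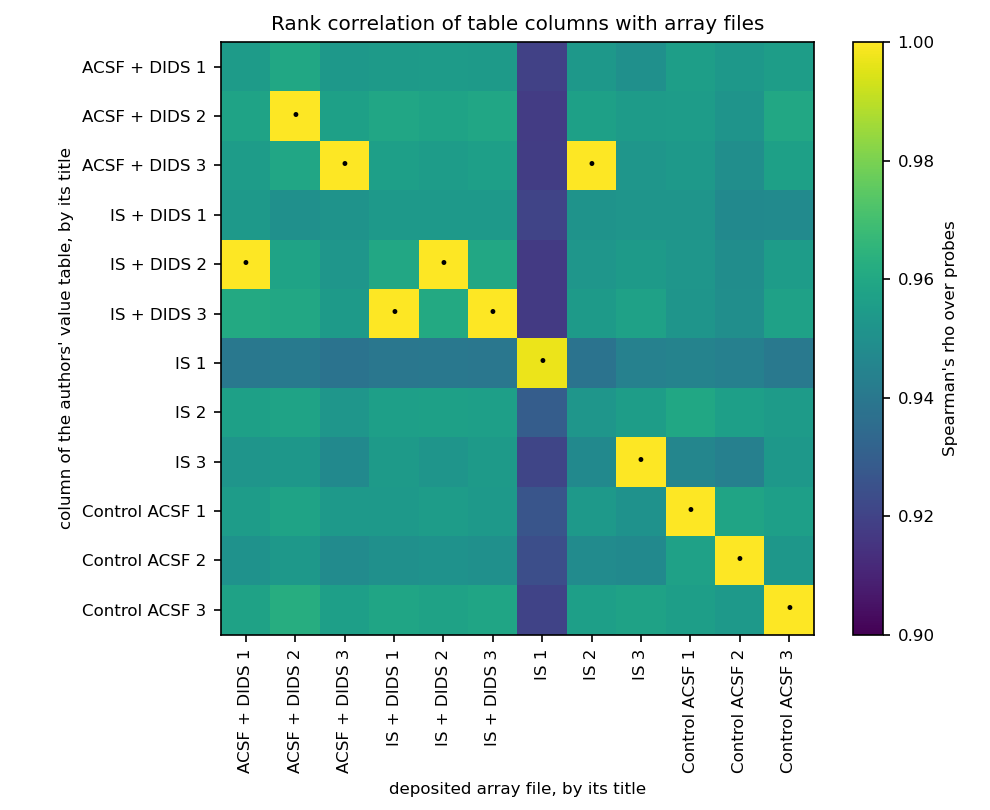
Spearman rank correlation over probes between each column of the authors' value table (rows) and each deposited array file (columns), with a dot where it exceeds 0.99. The rows of ACSF + DIDS 1, IS + DIDS 1 and IS 2 have no dot, and the file titled IS 2 matches the table column titled ACSF + DIDS 3.

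The median raw signal of the 5 arrays was 73.5 to 83.6, with 15772 to 16614 probes above the detection limit. Tests covered 17160 of 46628 probes, of which 5106 carry a gene name, for 4472 genes. Signals below are those of the authors' table, in normalized intensity units, and are comparable between arrays but not between probes.

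Ptx3, which fell in DIDS, had the smallest adjusted p in the authors' table, and Nr4a2 rose. Printed here are the 250 bases before the start of 5 genes, the 3 named genes that passed in the fit (Nr4a2, Ptx3 and Adamts1) and Errfi1 and Irf1, which passed in the authors' table but not in the fit, from RefSeq (GRCm38.p6), shown because induction through CREB, NF-kB or interferon is read at such sequences. They were chosen after the values were seen. Capitals mark matches, on either strand, to the cyclic AMP response element TGACGTCA (CRE), to the AP-1 site TGANTCA, to the STAT site TTCNNNGAA (GAS) or to the NF-kB consensus, and the printed strand runs towards the gene.
Nr4a2, chr2:57124004-57124253, minus strand: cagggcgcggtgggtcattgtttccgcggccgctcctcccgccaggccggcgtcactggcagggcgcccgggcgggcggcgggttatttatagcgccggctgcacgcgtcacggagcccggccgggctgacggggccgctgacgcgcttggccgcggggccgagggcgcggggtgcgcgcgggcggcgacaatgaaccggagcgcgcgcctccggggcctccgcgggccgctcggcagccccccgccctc
Errfi1, chr4:150854820-150855069, plus strand, the second of its annotated starts: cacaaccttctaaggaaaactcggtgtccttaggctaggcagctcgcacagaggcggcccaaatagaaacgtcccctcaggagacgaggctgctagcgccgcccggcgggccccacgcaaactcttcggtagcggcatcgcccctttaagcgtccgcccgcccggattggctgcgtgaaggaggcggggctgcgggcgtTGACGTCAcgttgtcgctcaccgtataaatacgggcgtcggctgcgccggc
Ptx3, chr3:66219637-66219886, plus strand: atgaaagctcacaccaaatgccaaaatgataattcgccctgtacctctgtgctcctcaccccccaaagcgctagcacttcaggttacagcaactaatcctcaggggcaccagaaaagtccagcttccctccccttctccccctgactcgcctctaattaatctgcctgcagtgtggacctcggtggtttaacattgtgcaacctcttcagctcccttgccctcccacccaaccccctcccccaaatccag
Adamts1, chr16:85803114-85803363, minus strand: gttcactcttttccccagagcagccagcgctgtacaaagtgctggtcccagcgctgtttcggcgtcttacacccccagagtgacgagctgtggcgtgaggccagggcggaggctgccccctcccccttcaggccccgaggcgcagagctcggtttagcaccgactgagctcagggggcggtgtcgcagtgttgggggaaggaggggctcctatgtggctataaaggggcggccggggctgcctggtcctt
Irf1, chr11:53769764-53770013, plus strand, the first of its annotated starts: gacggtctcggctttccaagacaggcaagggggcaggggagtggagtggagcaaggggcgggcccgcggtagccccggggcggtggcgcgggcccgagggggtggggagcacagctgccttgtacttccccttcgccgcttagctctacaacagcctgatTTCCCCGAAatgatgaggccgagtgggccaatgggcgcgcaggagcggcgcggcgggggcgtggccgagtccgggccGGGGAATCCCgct
The Errfi1 window held a CRE whose first base lay at -51 from the start, and the Irf1 window held a GAS at -90 (TTCCCCGAA) and an NF-kB match at -13 (GGGGAATCCC). The Nr4a2, Ptx3 and Adamts1 windows held none of these letters, nor did the windows of Cenpa and the other annotated starts of Errfi1 and Irf1, which were searched too. Among all 32851 promoter windows of this length, 1.55% held the CRE, 6.75% the AP-1 site, 7.02% the GAS and 7.25% the NF-kB consensus.

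Ptx3, a secreted pattern recognition protein induced by inflammatory cytokines, had signals of 246.8, 227 and 223.5 in ACSF + DIDS 1, 2 and 3, against 1420, 1250 and 1428 in Control ACSF 1, 2 and 3. Every DIDS array lay below every control array. Groups did not overlap for 15.7% of all tested probes in these 6 columns of the authors' table, and for 24.8% in the 2 and 3 arrays of the fit. The mean was 232.4 ± 12.6 in ACSF + DIDS, against 1366 ± 101 in Control ACSF (SD, n = 3 each). In the fit of ACSF + DIDS 2 and 3 against Control ACSF 1 to 3, Ptx3 fell by 2.28 on the log2 scale (SE 0.11, adjusted p = 0.0200). In the authors' table with all 12 columns, an alternative chosen after the data were seen, it was 5.87-fold lower (adjusted p = 4.00e-06). Against Control ACSF 3 alone, on the same chip, the difference was -2.29 on the log2 scale (adjusted p = 0.128), and in the authors' table -2.66 (adjusted p = 0.00525). ACSF + DIDS 2 alone differed by -2.28 from the 3 controls and by -2.29 from Control ACSF 3.

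Nr4a2 had signals of 635.4, 689.6 and 624.3 in ACSF + DIDS 1, 2 and 3 on the probe scl018227.1_24-S, against 181.6, 202.4 and 182.7 in Control ACSF 1, 2 and 3. The groups did not overlap, and the array that the fit did not use, ACSF + DIDS 1, lay between the other DIDS arrays. The mean was 649.8 ± 34.9 in ACSF + DIDS, against 188.9 ± 11.7 in Control ACSF (SD, n = 3 each). The probe rose by 1.09 on the log2 scale (SE 0.06, adjusted p = 0.0200), and in the authors' table it was 3.44-fold higher (adjusted p = 3.18e-05). A second probe, scl0018227.2_224-S, read 1993, 2169 and 1508 in ACSF + DIDS 1, 2 and 3, against 414.4, 503.5 and 597.3 in the controls. Its difference of 2.08 missed the threshold (adjusted p = 0.142), but it passed in the authors' table (3.74-fold higher, adjusted p = 0.000704). The first probe differed by 1.09 from Control ACSF 3 alone (adjusted p = 0.334), and in the authors' table by 1.84 (adjusted p = 0.0277). ACSF + DIDS 2 alone differed by 1.18 both from the 3 controls and from Control ACSF 3.

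Adamts1, an extracellular enzyme that cuts proteoglycans of the matrix, had signals of 429.4, 480.2 and 379.9 in ACSF + DIDS 1, 2 and 3, against 983.1, 1011 and 1141 in the controls. It fell by 1.34 on the log2 scale (SE 0.09, adjusted p = 0.0265), and every DIDS array was below every control. The mean was 429.8 ± 50.2 in ACSF + DIDS, against 1045 ± 84.0 in Control ACSF (SD, n = 3 each). In the authors' table it was 2.44-fold lower (adjusted p = 0.000143). Its difference was -1.43 against Control ACSF 3 alone (adjusted p = 0.313), and -1.42 in the authors' table (adjusted p = 0.0796). ACSF + DIDS 2 alone differed by -1.22 from the 3 controls and by -1.31 from Control ACSF 3.

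These 3 genes and 1 unnamed probe were the only probes to pass in that fit: 4 of 17160 probes, or 0.0233%, of which 2 were higher (0.0117%) and 2 lower (0.0117%), while 1310 had an unadjusted p under 0.05 against 858 expected by chance. The unnamed probe, scl36783.2.1_280-S, rose by 1.86 (adjusted p = 0.0200), with signals of 1481.7, 1473.5 and 1224.9 in ACSF + DIDS 1 to 3, against 394.4, 389.6 and 393.7 in Control ACSF 1 to 3. Against Control ACSF 3 alone, 0 probes passed (0%) in limma, with 1231 at an unadjusted p under 0.05 and a smallest adjusted p of 0.114. In the authors' table, 40 probes passed in that comparison (0.233%). With chip as a block 2 probes passed (0.0117%), neither of them among the 4, and the adjusted p was 0.0666 for Ptx3 and 0.0995 for both Nr4a2 and Adamts1. Without ACSF + DIDS 3, Control ACSF 1 or Control ACSF 3, 0 probes passed, and without Control ACSF 2 the count was 1. The case without ACSF + DIDS 3 is that of ACSF + DIDS 2 alone, with a smallest adjusted p of 0.0798.

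The count differed with how background was removed. It also differed when background was left as in the fit and eBayes was run with trend and robust, as given further below. The method of the fit infers a background SD of 256 to 304 signal units from the detection scores, whereas quantiles of the same scores give 10.6 to 21.3, so differences of dim probes are shrunk in the fit. Ccl2, for example, differed by -0.66 on the log2 scale in the fit. It differed by -2.78 when both the background SD and the background mean came from the quantiles (adjusted p = 0.0202 in limma). On ACSF + DIDS 2 that mean moved from 68.9 to 58.9. With the SD and mean taken from the quantiles 30 probes passed (0.175%), and with no background correction 39 (0.227%). In the authors' table with columns of the same titles as the fit, 46 passed (0.268%). Of these columns, that of IS + DIDS 1 does not match the array used in the fit. In the authors' table with its 12 columns, 108 of 17153 probes passed (0.63%), 34 higher (0.198%) and 74 lower (0.431%), and they contained all 4 above. With chip as a block in the authors' table, on the columns of the same titles and the chips of the files, 28 passed. The counts of 28, 30 and 108 come from alternatives chosen after the data were seen.

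**Figure D2:**
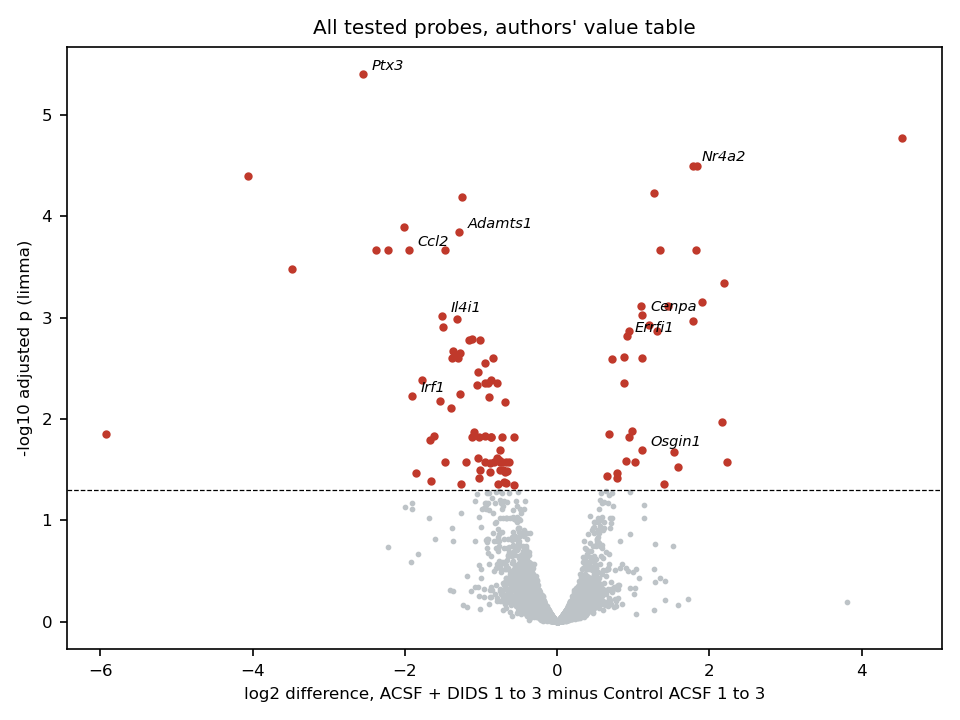
Log2 difference of ACSF + DIDS 1 to 3 minus Control ACSF 1 to 3 (x axis) and -log10 of limma's adjusted p (y axis) for the 17153 probes tested in the authors' table, with the 108 past the threshold in red and the threshold of 0.05 dashed. Ptx3 has the smallest adjusted p, and Nr4a2 stands highest among the named genes with a positive difference.

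The 108 probes included 26 with a gene name, which belong to 24 genes, 6 higher and 18 lower. For each of them all 3 DIDS arrays lay on one side of all 3 controls, as did 15.7% of all probes tested. Of the 26 named probes, 15 passed when any 1 of the 6 arrays was left out, and 11 lost the call in at least 1 case. The 15 were the probes of Ptx3, Adamts1, Ccl2, Irf1, Il4i1, Irgm2, Rassf4, Spata13, Tgfbr1, Cenpa, Errfi1 and Msantd1, both probes of Nr4a2 and 1 of Zfp36l1. Against Control ACSF 3 alone, with ACSF + DIDS 2 and 3, 6 of the 26 passed in the authors' table: the probes of Ptx3, Irf1, Il4i1 and Cenpa, the first of Nr4a2 and 1 of Zfp36l1. Those of Ccl2, Tgfbr1, Errfi1 and Klf5 were among those that did not (adjusted p = 0.0878, 0.282, 0.317 and 0.687).

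**Figure D3:**
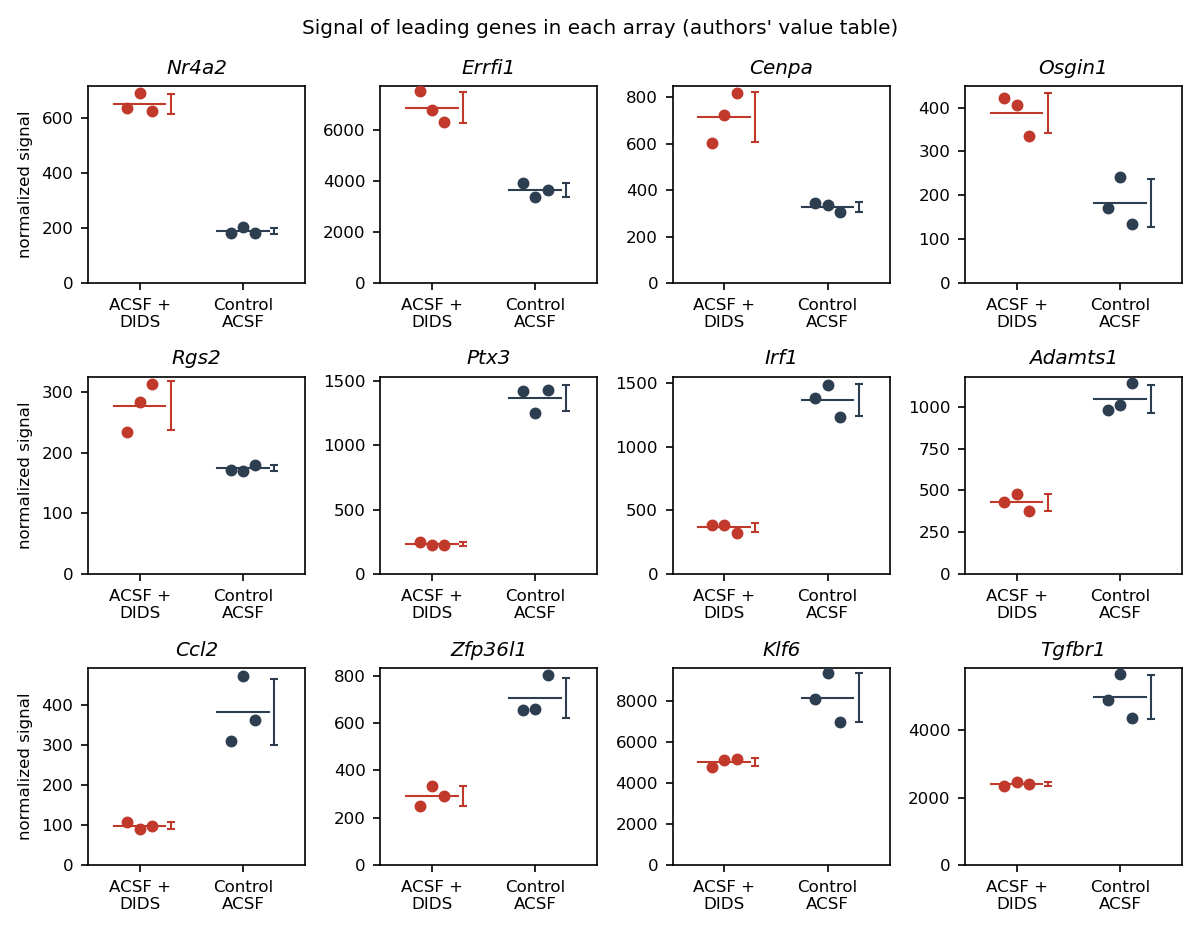
Normalized signal of 12 leading genes in the authors' table, with ACSF + DIDS 1 to 3 in red and Control ACSF 1 to 3 in dark blue, a line at the mean and a bar of 1 SD either side of it. In every panel the 3 DIDS points lie on one side of the 3 control points.

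Among genes of cytokines, chemokines and the innate response, 9 of 34 were measured. Of these 9, 1 (Ptx3) fell in the fit, where 0.0117% of all probes tested fell. Ptx3, Ccl2 and Irf1 (3 genes) fell in the authors' table, where 0.431% fell. In the fit 8 of the 9 differences were negative. Of these 8, Ccl2 and Cxcl2 were well above background on all 3 control arrays and on neither DIDS array. Control arrays alone can admit such probes to the tests, so their negative signs carry little weight. The list's median was -0.56 on the log2 scale, beside 0.0025 over all tested probes. Against Control ACSF 3 alone it was -0.56, the value of Ccl2 itself. In the authors' table the list's median was -1.24, the value of Cxcl2 itself, and over all alternatives it lay between -1.85 and -0.44. Irf1, which activates interferon-stimulated genes, had signals of 382.6, 387.8 and 325.8 in ACSF + DIDS 1 to 3, against 1379, 1481 and 1233 in Control ACSF 1 to 3. It was 3.73-fold lower in the authors' table (adjusted p = 0.00599), but its difference of -1.96 in the fit missed the threshold (adjusted p = 0.412). From Control ACSF 3 alone, Irf1 differed by -1.75 in the fit (adjusted p = 0.128) and by -1.79 in the authors' table (adjusted p = 0.0278), and with chip as a block its adjusted p was 0.484.

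Ccl2, the chemokine that attracts monocytes, read 106.5, 89.2 and 98.6 in ACSF + DIDS 1 to 3, against 310.6, 473.9 and 364 in Control ACSF 1 to 3. It was not well above background on either DIDS array of the files, so its fold in the fit is a bound, at least 1.54-fold lower (adjusted p = 0.379). In the authors' table it differed by -1.95 on the log2 scale, with no such bound (adjusted p = 0.000217). The bound sets the control mean against, on each DIDS array, the lowest signal well above background or the probe's own, whichever was higher. Cxcl1, a neutrophil chemokine chosen after its values were seen, read 950.6, 771 and 468.6 in ACSF + DIDS 1 to 3, against 2460.5, 2615.5 and 5436.4 in Control ACSF 1 to 3. The groups did not overlap, but the controls spread widely. The difference was -2.71 in the fit (adjusted p = 0.608) and -2.22 in the authors' table (adjusted p = 0.182), and neither passed. Against Control ACSF 3 alone in the authors' table, Cxcl1 differed by -3.18 and Cxcl2, a related chemokine, by -2.01. Cxcl2, also chosen after its values were seen, was not well above background on either DIDS array of the fit. It read 93, 98.8 and 79.8 in ACSF + DIDS 1 to 3, against 152.2, 177.4 and 357.9 in Control ACSF 1 to 3. Against the 3 controls Cxcl2 did not pass in limma (adjusted p = 0.944 in the fit and 0.691 in the authors' table). Vcam1, a leukocyte adhesion molecule, differed by -0.56 (adjusted p = 0.410). Ptgs2, which encodes cyclooxygenase, was the member with a positive difference, which did not pass (adjusted p = 0.962), and was not well above background on any control array.

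Il4i1, Irgm2, Zfp36l1, Arid5a and Trex1, which are in none of the lists, also fell in the authors' table. Il4i1, a secreted amino acid oxidase, read 102.7, 103.8 and 100.3 in ACSF + DIDS 1 to 3, against 252.4, 248.5 and 396.3 in the controls. It was at least 1.32-fold lower by the same bound in the fit (adjusted p = 0.434). In the authors' table it differed by -1.51 on the log2 scale (adjusted p = 0.000973). Irgm2, an interferon-inducible GTPase, was at least 1.09-fold lower by that bound in the fit (adjusted p = 0.590). In the authors' table Irgm2 differed by -0.80 on the log2 scale (adjusted p = 0.00440). Zfp36l1, which promotes decay of AU-rich mRNAs, had 2 probes in the authors' table that were 2.43-fold and 1.65-fold lower (adjusted p = 0.00224 and 0.0152). Arid5a, which stabilizes inflammatory mRNAs, was 2.02-fold lower (adjusted p = 0.0321) and lost the call without any of 5 of the 6 arrays. Trex1, a cytosolic DNA exonuclease, was 1.69-fold lower (adjusted p = 0.0265) and lost it without any 1 of the 6.

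The remaining genes that fell in the authors' table have varied roles. Tgfbr1, the type I receptor of TGF-beta, read 2355, 2475 and 2414 in ACSF + DIDS 1 to 3, against 4906, 5691 and 4376 in Control ACSF 1 to 3, a 2.06-fold lower signal (adjusted p = 0.00346). Spata13 was 1.86-fold lower (adjusted p = 0.00601), and Rassf4 was 1.92-fold lower (adjusted p = 0.00278). A second Rassf4 probe did not pass in limma. It differed by -0.76 on the log2 scale in the authors' table (adjusted p = 0.0634) and by -0.43 in the fit (adjusted p = 0.572). The transcription factors Klf5 and Klf6 were 1.93-fold and 1.61-fold lower (adjusted p = 0.0148 and 0.0336), and each lost the call without ACSF + DIDS 1, ACSF + DIDS 3, Control ACSF 1 or Control ACSF 2, Klf6 also without ACSF + DIDS 2. Noct, an enzyme under circadian control, was 1.73-fold lower (adjusted p = 0.0241), and Krr1, a ribosome assembly factor, 1.68-fold (adjusted p = 0.0317). Trim47, a ubiquitin ligase, was 2.16-fold lower (adjusted p = 0.0152), and Zfp703, a transcriptional repressor, 1.82-fold (adjusted p = 0.0152). Noct, Krr1, Trim47 and Zfp703 each kept the call in 1 of the 6 cases in which an array was left out.

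**Figure D4:**
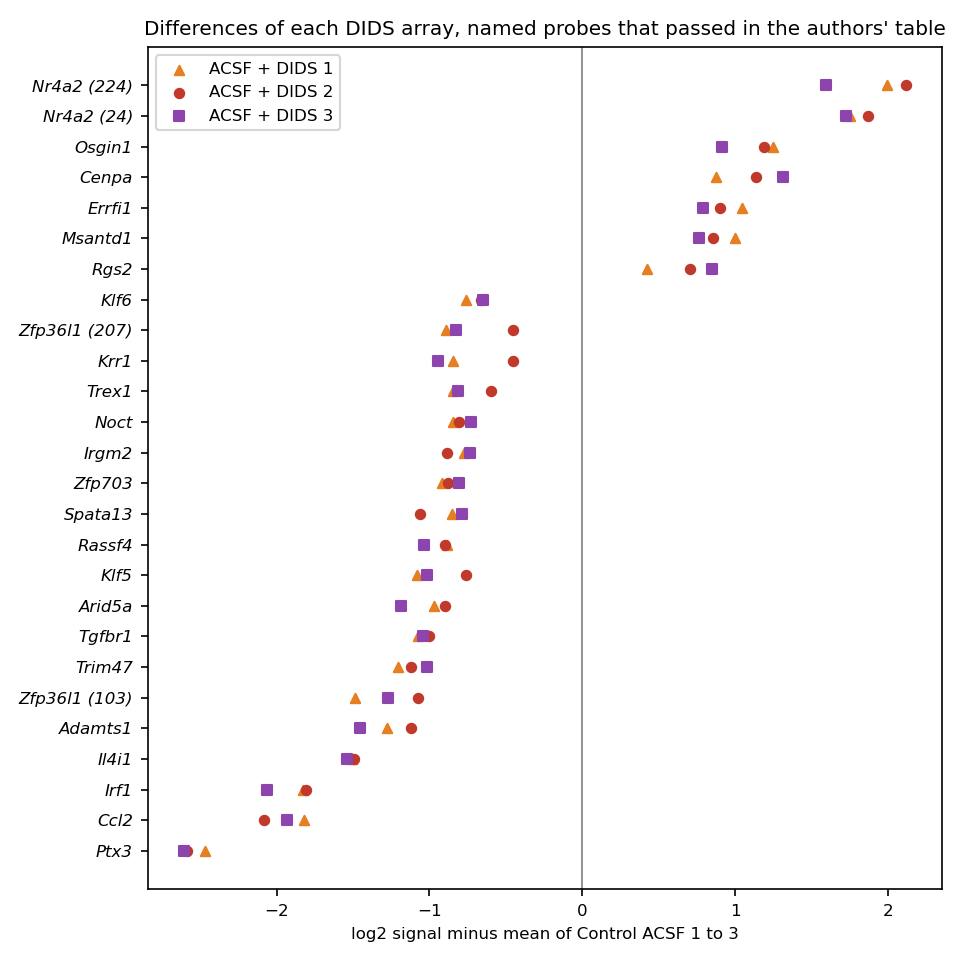
Log2 signal of ACSF + DIDS 1, 2 and 3 in the authors' table, each minus the mean of Control ACSF 1 to 3, for the 26 named probes that passed there (the number in brackets separates probes of a gene). The 3 DIDS arrays lie on the same side of 0 for every probe.

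Among immediate early and activity-regulated genes, 9 of 38 were measured, and 0 passed in the fit. The list takes each gene's brightest probe, and the Nr4a2 probe that passed is the dimmer one. Nr4a2 and Rgs2 (2 genes) rose and Klf6 (1 gene) fell in the authors' table, where 0.198% of all probes tested rose and 0.431% fell. The median difference in the fit was 0.27, beside 0.0025 over all tested probes. Rgs2, which dampens signalling through Gq, read 234.3, 284 and 314.2 in ACSF + DIDS 1 to 3, against 172.5, 170.6 and 180.1 in Control ACSF 1 to 3 (1.58-fold higher, adjusted p = 0.0366), and lost the call without any of 5 of the 6 arrays. Nr4a3, a relative of Nr4a2 chosen after its values were seen, read 214.1, 211.2 and 406.5 in ACSF + DIDS 1 to 3, against 121.2, 138.4 and 101.5 in Control ACSF 1 to 3, where it was well above background on 1 of the 3 arrays. The groups did not overlap, but its difference did not pass (adjusted p = 0.590 in the fit and 0.0711 in the authors' table). Junb differed by 0.29 and Egr2 by 0.17 (adjusted p = 0.811 and 0.922).

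Of 6 measured genes of MAP kinase feedback and EGF receptor ligands, 1, Errfi1, rose in the authors' table, where 0.198% of all probes tested rose. Errfi1, a feedback inhibitor of the EGF receptor, read 7536, 6806 and 6326 in ACSF + DIDS 1 to 3, against 3932, 3375 and 3665 in Control ACSF 1 to 3. All DIDS arrays exceeded all controls. The mean was 1.88-fold higher in the authors' table (adjusted p = 0.00152), and the difference of 0.88 in the fit missed the threshold (adjusted p = 0.107). Cenpa, the centromeric variant of histone H3, read 602.8, 723.7 and 819.1 in ACSF + DIDS 1 to 3, against 345.2, 337.1 and 305.5 in Control ACSF 1 to 3. It was 2.16-fold higher in the authors' table (adjusted p = 0.000951), with 1.04 in the fit (adjusted p = 0.0746). Osgin1, a growth inhibitor induced by oxidative stress, was 2.17-fold higher in the authors' table (adjusted p = 0.0203). It was the 1 of 14 measured NRF2 and oxidative stress genes that passed there, beside 0.63% of all probes tested. The list's median in the fit was -0.02. Osgin1 lost the call without ACSF + DIDS 1, ACSF + DIDS 2, Control ACSF 1 or Control ACSF 3. Msantd1, well above background on 2 of the 3 control arrays, was 1.83-fold higher (adjusted p = 0.00247).

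Of 14 measured genes of bicarbonate and chloride transport, the class that DIDS acts on, 0 passed in either table, and the median difference was -0.003. The anion exchangers Slc4a2 and Slc4a3 differed by -0.27 and 0.15, and the bicarbonate transporters Slc4a4, Slc4a7 and Slc4a8 by -0.15, 0.35 and 0.10. A second Slc4a3 probe differed by -0.07. From Control ACSF 3 alone, Slc4a2 differed by -0.08 and Slc4a4 by 0.11. The directions of Slc4a3, Slc4a4 and Slc4a7 turned under some alternatives. The chloride channel protein Clic4 differed by -0.81 (adjusted p = 0.609), and its other probes by -0.40 and -0.28.

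Of 15 measured genes of hypoxia response and glycolysis, 14 had positive differences, with a median of 0.22, but 0 passed in either table. Gpi1 and Eno1, enzymes of glycolysis, differed by 0.42 and 0.31 (adjusted p = 0.318 and 0.537). The list's median was 0.15 against Control ACSF 3 alone. Of 9 measured matrix proteases and inhibitors, 1, Adamts1, fell in the fit and in the authors' table, where 0.0117% and 0.431% of all probes tested fell. Members of the lists of heat shock, endoplasmic reticulum stress, apoptosis and p53, glutamate receptors, GABA transmission, oxidative phosphorylation, cholesterol synthesis and cytosolic ribosomal proteins did not pass in either table. Cebpb, in the endoplasmic reticulum stress list, differed by -1.02 (adjusted p = 0.434).

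**Figure D5:**
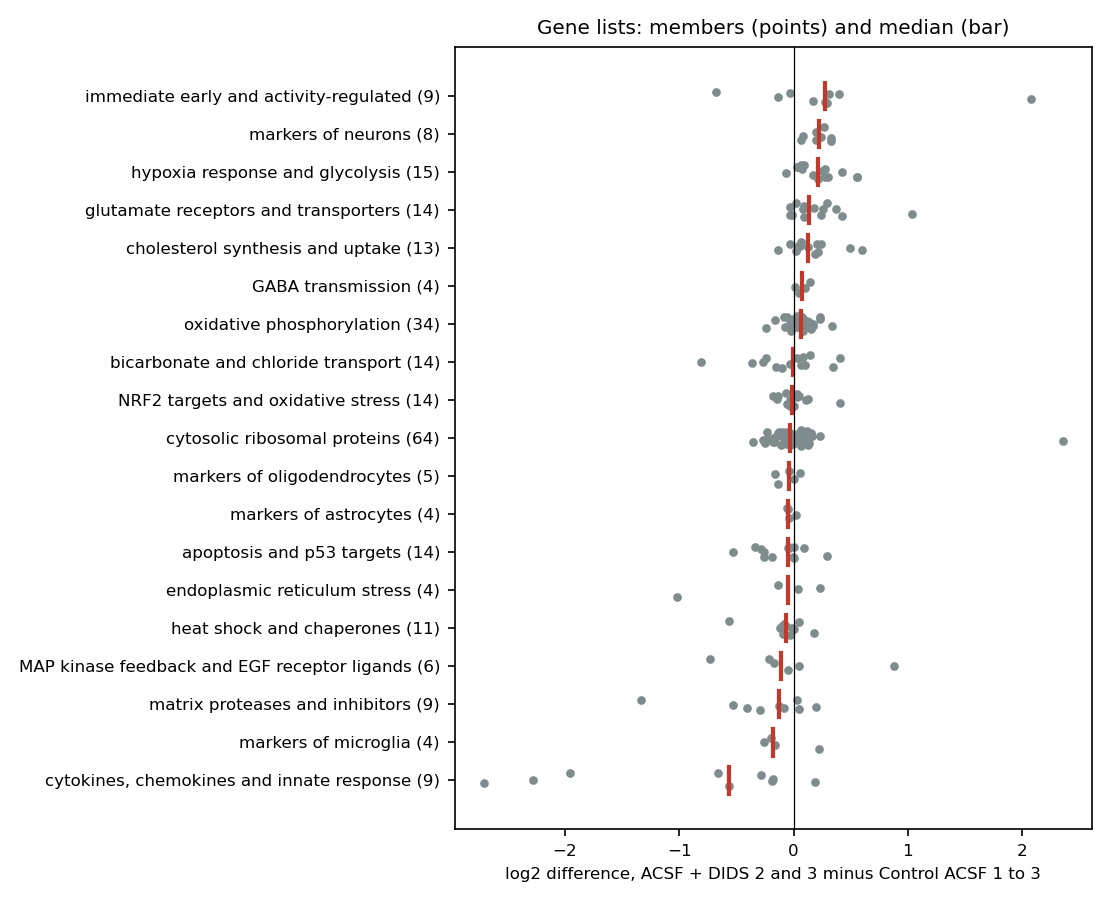
Log2 difference of ACSF + DIDS 2 and 3 minus Control ACSF 1 to 3 for the measured members of each list (points, with their number in brackets) and the list's median (red bar). The list of cytokines, chemokines and innate response has the lowest median, -0.56.

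Markers of the tissue's cell types were present and none passed. The 8 measured neuronal markers all had positive differences, with a median of 0.22 and of 0.01 against Control ACSF 3 alone. Their summed signal was 41556 to 42374 in ACSF + DIDS 2 and 3, against 34252 to 41385 in Control ACSF. The 4 microglial markers had a median of -0.18, and of 0.20 against Control ACSF 3 alone, with sums of 5475 to 6732 in ACSF + DIDS and 5208 to 7745 in Control ACSF. Astrocyte and oligodendrocyte markers each had a median of -0.04. Of the 5 endothelial and meningeal markers on the array that could be named, 1, the proteoglycan Dcn, was detected, with a difference of 1.04 (adjusted p = 0.490). The part of cell composition in the results above was not tested.

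Sex-linked transcripts differed between arrays of these mixed-gender cultures. Xist, the RNA of the inactive X chromosome, read 1021.5, 1429 and 1331.7 in ACSF + DIDS 1 to 3, against 924.6, 863.1 and 68.5 in Control ACSF 1 to 3, so Control ACSF 3 stood apart. The Y-linked gene Kdm5d read 250.5, 183.7 and 47.1 in ACSF + DIDS 1 to 3, against 273.7, 302.8 and 454.4 in Control ACSF 1 to 3. Ddx3y, also Y-linked, read 101.2, 100.9 and 50.8 in ACSF + DIDS 1 to 3, against 112.5, 110.8 and 164.8 in Control ACSF 1 to 3. It was well above background on 1 of the 3 control arrays and on neither DIDS array of the fit. Both Y-linked genes were lowest in ACSF + DIDS 3, an array of the fit. Xist was 1 of the 2 probes that passed with chip as a block. In the authors' table against Control ACSF 3 alone, this Xist probe differed by 4.33 with the smallest adjusted p of all probes (0.00130), and a second Xist probe, not well above background on any control array, passed too (adjusted p = 0.0278). Xist, Kdm5d and Ddx3y were chosen after their values were seen. The part of sex in the fit and in the comparison with Control ACSF 3 alone was not tested.

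By the rule for named genes, others were given as not passing. Higher in DIDS were Dcn, Fbxw7, Cdh13, Rfng, Arrdc3, Scg2, C4b, Eif4e2 and Stard4, with differences of 0.60 to 1.04, and lower were Hps6, Erdr1, Hyal2 and C2cd4c, with differences of -0.69 to -0.59. Their adjusted p in the fit was 0.218 to 0.555. Scg2, a secretogranin of dense-core vesicles, read 3225, 3454 and 2981 in ACSF + DIDS 1 to 3, against 1794, 2117 and 2430 in Control ACSF 1 to 3. Eif4e2 and Erdr1 had a second probe that differed by -0.07 and -0.47.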

How the data were processed

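Total RNA was hybridized to Illumina Mouse-6 v1.1 BeadChips. Per the file headers, the deposited signal column is the mean bead intensity of each probe, exported by BeadStudio 2.3.47 with no normalization (the submitters' processing notes name BeadStudio 2.0), and the deposited detection column is a score from 0 to 1, near 1 for detected probes. The number of beads per probe, a deposited column per the file headers, had a median of 35 to 36 and limits precision. The authors' deposited value table holds normalized intensity on a linear scale without centring of genes (column medians 80.6 to 82.5), and the normalization method is not given in the sources used here. 0 other per-sample columns were left unused.

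Arrays with equal signals were counted once. The neqc method of limma (version 3.58.1, in R 4.3.3) corrected background, inferred from the detection scores, with an offset of 16, and was followed by quantile normalization and log2. Probes with a score above 0.99 on at least 2 of 8 distinct arrays were tested with lmFit and eBayes, with 1 coefficient per group, 4 residual degrees of freedom, Benjamini-Hochberg adjustment over all probes and a threshold of 0.05. Against Control ACSF 3 alone, groups were split by chip, which left fewer residual degrees of freedom than in the fit. Control ACSF 3 was then a single array, whose spread was assumed to be that of the others. The adjusted p-values of that comparison rest on this assumption. The authors' table was log2 transformed with no pseudocount and fitted the same way.

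Names came from zero-padded gene numbers of at least 10000 in probe names (82.6% of 11857 are in the RefSeq table, against 46.0% after adding 1): 9796 probes, plus 9 by accession, with 36823 unnamed. The genes named were, by rule, up to 12 in each direction that passed without overlap between groups, filled with non-overlapping genes of at least 1.5-fold given as not passing, up to 3 members of each list, Nr4a2, Ptx3, Adamts1 and the Slc4 family. Named probes that passed in the authors' table were added afterwards. The members, lists and rule were chosen with earlier results of these data known. Deviations from the group means were barely correlated between same-numbered arrays (0.05, 0.04 and 0.03). With 3 arrays per group this cannot decide whether they were paired. The script was tested on simulated data.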

Additional observations from a re-analysis of the deposited data

Results flagged for a closer look

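ACSF + DIDS 1 was left out of the fit of the array files, because its file repeats another sample's, and entered the fits of the authors' table with 6, 11 and 12 columns, where it has values of its own. In that table Nr4a2 (scl018227.1_24-S) read 635.4 in ACSF + DIDS 1, above the highest Control ACSF array at 202.4. The unnamed probe scl36783.2.1_280-S read 1481.7 in ACSF + DIDS 1, above the highest Control ACSF array at 394.4. Groups of 3 arrays are too small for a check of outlying arrays.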

How the results depend on the processing

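The count of 4 probes was within 1.5 times under median scaling, detection on at least 3 or on all arrays, only the 5 arrays compared and an adjusted p under 0.1. It was 39 with no background correction, 42 with normexp, 37 with eBayes with trend and robust, 46 in the authors' table with columns of the same titles, 7 with arrayWeights, 2 with no filter on dim probes, 2 with chip as a block, 1 with the ACSF + DIDS 1 file counted, and 0 to 7 with 1 array left out. Among alternatives chosen after the data were seen, it was 108 in the authors' table with 12 columns, 145 with the 6 columns compared, 153 without the IS + DIDS 1 column, 28 with chip as a block, 30 with the background SD from quantiles and 13 with that SD and chip as a block. Wherever the SD came from quantiles, the background mean did too. Leaving out each array in turn gave 65 to 102 in the authors' table, 73 without ACSF + DIDS 1, 65 without ACSF + DIDS 3 or Control ACSF 2 and 67 without ACSF + DIDS 2 or Control ACSF 1. Against Control ACSF 3 alone the count of 0 became 38 with no background correction, 38 with normexp, 38 with trend and robust, 40 in the authors' table and 11 with the SD from quantiles. With ACSF + DIDS 2 alone it was 0, with a smallest adjusted p of 0.0798. Of 54 named results 51 kept their direction throughout, and 9 of 1288 values reversed. Slc4a3 was -0.016 with chip as a block, -0.066 with the ACSF + DIDS 1 file counted, -0.00756 in the authors' table with chip as a block and -0.014 with the SD from quantiles and that block. Slc4a4 was 0.15 with chip as a block, -0.69 to 0.39 with 1 array left out (0.39 without ACSF + DIDS 2), 0.14 in the authors' table with the block and 0.15 with the SD from quantiles and the block. Slc4a7 was -0.015 with the ACSF + DIDS 1 file counted. The cause of these changes was not tested. Genes and lists with no probe detected on every array have no value under that filter. Dim probes are limited by their signal over background.

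With the replicate block 0 probes passed, with a smallest adjusted p of 0.142. The titles give only a replicate number, so what arrays of equal number share is not known here.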

Other observations

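A gene name was found for 26 of the 108 probes that passed in the authors' table, and some had larger differences than the named genes. The probe scl53482.9.1_175-S read 2168, 3271.2 and 2624.8 in ACSF + DIDS 1 to 3, against 103.7, 104.2 and 138.7 in Control ACSF 1 to 3. Its mean level was 23.2-fold higher in the authors' table with 12 columns (adjusted p = 1.70e-05 in limma). In the fit its difference of 3.71 on the log2 scale missed the threshold (adjusted p = 0.138). This probe was well above background on only 1 of the 3 control arrays. The probe scl39282.4_366-S read 386.8, 348.6 and 285.6 in ACSF + DIDS 1 to 3, against 5283.8, 6901.7 and 4877.2 in Control ACSF 1 to 3, a 16.7-fold lower signal (adjusted p = 4.00e-05). The ribosomal protein probe of Rps12 read 10142.4, 15776 and 15573.7 in ACSF + DIDS 1 to 3, against 8832.5, 5.9 and 17453.9 in Control ACSF 1 to 3, so Control ACSF 2 stood apart.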
